A study of Mus musculus with 12 samples.

Results

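The 10 Mb of mouse chromosome 17 from 20 to 30 Mb (mm10) were examined in brain tissue taken 28 days after middle cerebral artery occlusion (MCAo), a model of ischemic stroke. The genes were those rows of the deposited count table that start inside this window. The window had been picked because earlier results from these data showed genotype differences along it, and 7 of its rows were left out by the same choice. This left 298 of the 25124 genes in the table. Of these, 36 were noncoding, 4 pseudogenes and 2 small nucleolar RNAs, and the rest protein-coding. The genotype differences described below therefore had a part in choosing the window and are given as descriptions, without p-values.

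The 12 libraries fell into 4 groups of 3. Wild-type mice were C57BL6/J, and the DKK1 mice carried 3 engineered alleles. These were Gt(ROSA)26Sortm1.1(rtTA,EGFP)Nagy, which places a doxycycline-dependent activator at the Rosa26 locus, Hprttm1(tetO-Dkk1)Spdl, a Dkk1 transgene under a tetracycline operator at Hprt, and Tg(TCF/Lef1-lacZ)34Efu/J, a Wnt reporter. All mice, wild type included, had the stroke and received doxycycline at 200 mg/kg, with induction from 3 days after MCAo. From each genotype the intact hemisphere (contralateral to the lesion) and the lesioned hemisphere (ipsilateral) were sequenced. The labels do not say how many animals gave the libraries, so the spread between libraries of a group may be partly technical. No group carried the alleles without doxycycline, so the induced protein and any other difference in DNA between the strains cannot be told apart. The series title places DKK1 in myeloid cells, but the labels name no myeloid-restricted driver.

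DKK1 is a secreted inhibitor of canonical Wnt signalling that binds the LRP co-receptors and Kremen proteins. The window holds several tandem gene families. Near its lower edge lie vomeronasal and formyl peptide receptors, which serve chemosensation, followed by KRAB-type zinc finger genes, which encode DNA-binding repressors. Further along lie the Prss genes, trypsin-like serine proteases that include relatives of the mast cell tryptases. They sit within a gene-dense stretch with housekeeping, synaptic and signalling genes. The Prss genes are best known from testis, epithelia and granulocytes, not from brain.

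The wild-type level was close to 0, and the DKK1 level was not, for 4 genes, Prss33, Prss41, Prss32 and Rnf151. Prss33 (chr17:23833361-23835767), Prss41 (chr17:23836785-23844156) and Prss32 (chr17:23853772-23859776) are direct neighbours with gaps of 1018 and 9616 bases between them, and Prss32 is on the plus strand while the others are on the minus strand. Rnf151 (chr17:24715840-24718057, minus strand) lies further up. For these 4 genes, the 250 bases upstream of each start, from RefSeq on GRCm38.p6, are shown here. Each is read 5′ to 3′ on the strand of its gene. The genes were picked for this pattern of levels, and whether it has a shared cause was not tested. Capitals mark a match to any of 4 motifs searched on both strands, the TATA box (TATAAA), the CCAAT box (CCAAT), the GC box (GGGCGG) and the TCF/LEF motif (CTTTGAT). In each case the RefSeq start is the start given in the count table.
Prss33, chr17:23835768-23836017: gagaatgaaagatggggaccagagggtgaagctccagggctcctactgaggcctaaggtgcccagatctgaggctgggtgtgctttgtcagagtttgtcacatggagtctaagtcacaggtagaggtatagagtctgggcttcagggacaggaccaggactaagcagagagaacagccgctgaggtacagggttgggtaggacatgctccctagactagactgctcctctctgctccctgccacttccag
Prss41, chr17:23844157-23844406: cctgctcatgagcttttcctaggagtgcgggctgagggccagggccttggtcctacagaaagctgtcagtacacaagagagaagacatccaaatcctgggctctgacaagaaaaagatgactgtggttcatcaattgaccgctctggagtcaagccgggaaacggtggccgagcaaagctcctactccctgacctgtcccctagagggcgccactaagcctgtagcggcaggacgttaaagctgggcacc
Prss32, chr17:23853522-23853771: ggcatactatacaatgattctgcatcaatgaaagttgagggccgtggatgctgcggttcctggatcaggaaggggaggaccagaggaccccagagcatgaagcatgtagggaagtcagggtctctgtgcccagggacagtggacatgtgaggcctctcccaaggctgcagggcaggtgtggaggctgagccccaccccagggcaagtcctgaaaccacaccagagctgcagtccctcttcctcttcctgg
Rnf151, chr17:24718058-24718307: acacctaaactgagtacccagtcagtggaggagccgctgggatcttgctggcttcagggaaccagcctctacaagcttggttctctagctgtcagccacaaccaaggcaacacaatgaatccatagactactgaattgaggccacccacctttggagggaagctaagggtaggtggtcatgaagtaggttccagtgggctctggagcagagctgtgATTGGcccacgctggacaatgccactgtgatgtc
The only match in these 4 stretches was a CCAAT box on the reverse strand of the Rnf151 promoter, 34 bases upstream of its start. Over 32851 mouse promoters of this length, the TATA box was present in 12.4%, the CCAAT box in 33.8%, the GC box in 32.7% and the TCF/LEF motif in 3.21%. Over the 232 promoters listed for 182 genes of the window these shares were 3.45%, 39.2%, 56.5% and 2.16%. A match describes letters only, and its absence says only that the letters are not in these bases.

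Total counts ran from 21209920 to 26911840 per library, and the window's genes took 1.20 to 1.30% of them. Dkk1 had 0 counts in all 6 wild-type libraries, 13, 5 and 4 counts in the DKK1 intact libraries and 32, 7 and 44 in the DKK1 lesioned libraries. Hprt, whose locus carries the transgene, had a mean of 77.9 counts scaled to library size (CPM) in wild-type and 16.8 CPM in DKK1 intact tissue, and 69.8 against 12.8 CPM in lesioned tissue. Both genes followed the labels in every library.

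Of the 298 genes, 223 had enough counts to be tested and 75 did not. A gene was called when its edgeR quasi-likelihood p, adjusted over all 17612 genes tested, was under 0.05. In the intact hemisphere 7 members were called higher in DKK1 mice and 14 lower, which is 9.42% of those tested beside 0.88% of all genes tested. By direction the members' shares were 3.14% higher and 6.28% lower, beside 0.369% and 0.511% of all genes. In the lesioned hemisphere 12 were called higher and 13 lower, 11.2% beside 2.37% of all genes; by direction these were 5.38% and 5.83%, beside 1.52% and 0.846%. Since the window was chosen on these contrasts, nothing is read from the excess. The groups' libraries did not overlap for 67 members in the intact hemisphere (30% beside 11.9% of all genes) and for 83 in the lesioned hemisphere (37.2% beside 20.6%). Most members were not called, and the median log2 fold change over the tested members was -0.01 in the intact and 0.02 in the lesioned hemisphere.

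The count of higher genes in the lesioned hemisphere was the least stable value. It was 31 without wild-type lesioned replicate 1, 6 without wild-type intact replicate 3, DKK1 intact replicate 2 or wild-type lesioned replicate 2, and 5 without wild-type lesioned replicate 3 or DKK1 lesioned replicate 3. The count of higher genes in the intact hemisphere was 4 without wild-type intact replicate 1 or DKK1 intact replicate 3. Of the individual calls, 17 of the 21 in the intact and 11 of the 25 in the lesioned hemisphere held under every alternative run. In the intact hemisphere the others were Prss32, Sstr5, D330041H03Rik and Tbl3. In the lesioned hemisphere the 11 were Prss33, Prss41, Zfp40, Atp6v0c, Atp6v0c-ps2, Rnps1, Rps2, Unkl, Decr2, Hmga1 and Hmga1b.

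Most called genes were called on both sides of the brain. Of the calls, 18 were shared, all with the same sign, which is 85.7% of the intact and 72% of the lesioned calls. Shared and higher in DKK1 mice were 6 genes, Zfp983, Prss33, Prss41, Prss32, the noncoding row D330041H03Rik and Rnf151. Shared and lower were 12 rows, Zfp40, Pkmyt1, Atp6v0c, Atp6v0c-ps2, Rnps1, Rps2, Spsb3, Unkl, Decr2, Hmga1, Hmga1b and Ppil1. The contrasts use different libraries, but if hemispheres come from the same animals they are not independent.

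**Figure D1:**
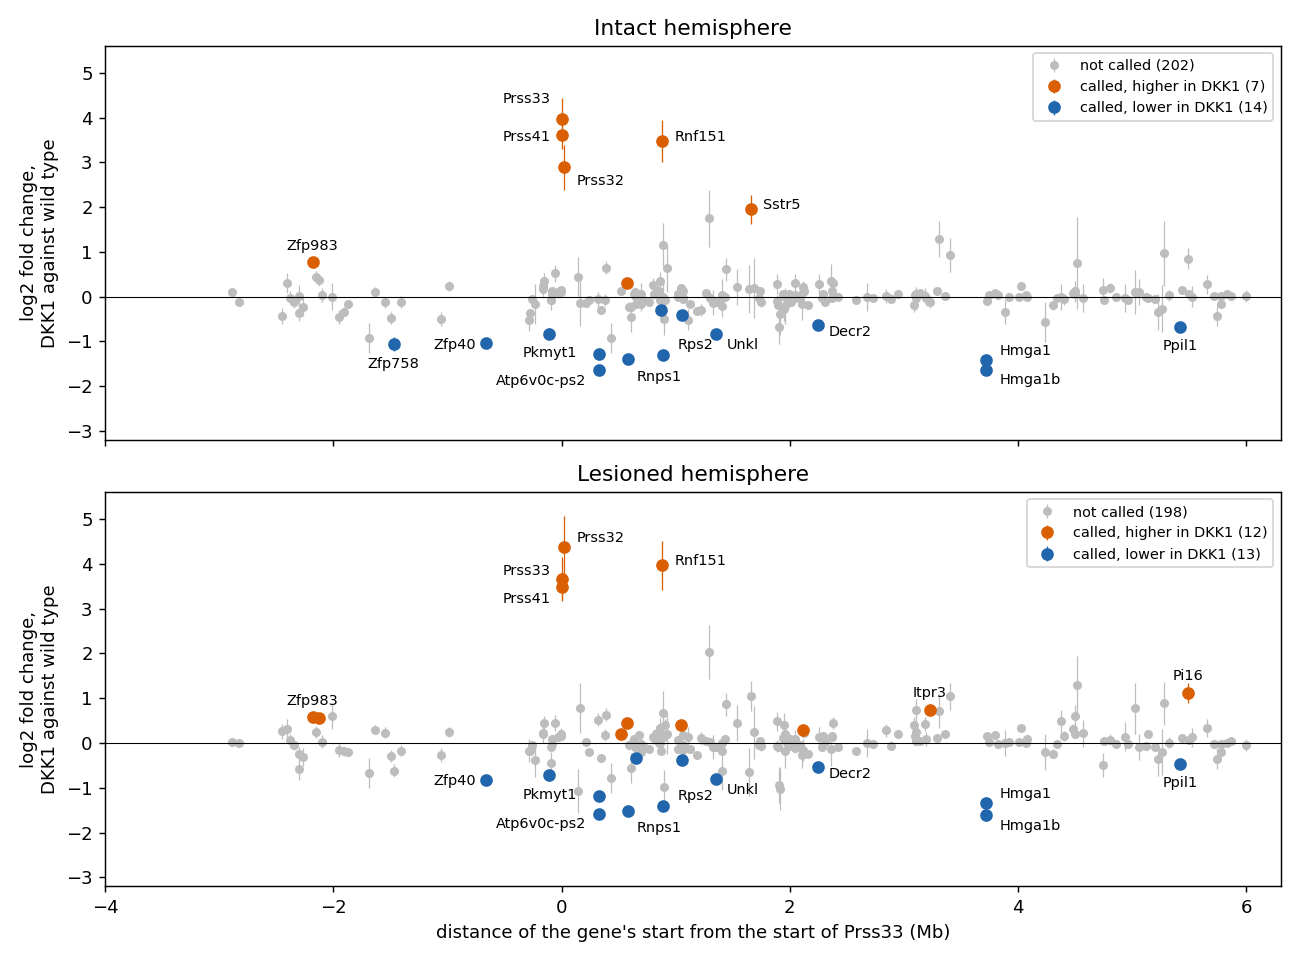
Log2 fold change, DKK1 against wild type, of the 223 tested genes against the distance of each gene's start from that of Prss33 in Mb, in the intact (top) and lesioned (bottom) hemisphere; points are fitted values and bars their standard errors. Orange genes were called higher (7 and 12) and blue genes lower (14 and 13), and they sit among many genes near 0; the lesioned value of Prss32 rests on 2 wild-type counts.

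Prss33, Prss41 and Prss32 were the only Prss genes of the window with a genotype call. They were nearly silent in wild-type brain and clearly counted in DKK1 brain, on both sides. Prss41 was the most abundant of them per length, at a mean of 4.99 TPM (transcripts scaled by length and library) in DKK1 intact tissue, against 1.17 TPM for Prss33 and 1.03 TPM for Prss32. These are low levels. In every one of the 3 genes, all 6 DKK1 libraries lay above all 6 wild-type libraries.

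Prss33 was at 0.075, 0.0855 and 0.0422 CPM in the wild-type intact libraries (1 or 2 counts each) and at 0.882, 0.984 and 1.53 CPM in the DKK1 intact libraries. In the lesioned hemisphere it was at 0.0374, 0.0396 and 0.0761 CPM in wild type and at 0.47, 0.866 and 0.783 CPM in DKK1 mice. The groups did not overlap on either side. The fitted log2 differences were 3.97 ± 0.46 (SE, n = 3 per group) and 3.66 ± 0.49.

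Prss41 was at 0.225, 0.299 and 0.422 CPM in wild-type and 3.14, 3.65 and 4.8 CPM in DKK1 intact tissue. On the lesioned side the values were 0.336, 0.357 and 0.19 CPM in wild type and 2.86, 3.38 and 3.84 CPM in DKK1 mice. The log2 differences were 3.60 ± 0.30 and 3.49 ± 0.30. Its lowest DKK1 library stood well above its highest wild-type library on each side.

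Prss32 was at 0.075, 0.299 and 0.0422 CPM in wild-type and 0.98, 1.07 and 1.09 CPM in DKK1 intact tissue, a log2 difference of 2.89 ± 0.50. Wild-type intact replicate 2, with 7 counts, stood above the other 2 libraries of its group. The intact call of Prss32 was lost, at log2 values of 2.58 to 2.94, when wild-type intact replicate 1 or any DKK1 intact library was left out. In lesioned tissue the wild-type libraries had 1, 0 and 1 counts and the DKK1 libraries 16, 18 and 14, a ratio of 24.5 with an exact 95% counting interval of 6.43 to 208. Annotated exons of Prss41 and Prss32 overlap on opposite strands. The library kit keeps strand, but whether strand was used in counting is not given in the sources used here, so a share of reads may belong to the other gene of this pair.

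The remaining Prss genes and Tpsg1 gave no genotype call. Prss21, Prss30, Prss22 and Prss27 follow Prss32 in the same stretch. Prss34, Prss28, Prss29 and Tpsg1 lie apart from them, from 25298394 to 25374442, with many other genes between. Prss30 had means of 0.436 ± 0.135 (SD, n = 3) and 0.599 ± 0.142 CPM in wild-type and DKK1 intact tissue, and 0.47 ± 0.146 and 0.219 ± 0.148 CPM in lesioned tissue. Prss22 had 0.947 ± 0.61 and 0.872 ± 0.524 CPM in intact and 0.446 ± 0.0881 and 0.769 ± 0.352 CPM in lesioned tissue. Tpsg1, the transmembrane tryptase gamma 1, had 0.661 ± 0.225 and 0.761 ± 0.148 CPM in intact and 0.493 ± 0.275 and 0.678 ± 0.0816 CPM in lesioned tissue. All of these groups overlapped or nearly touched. Prss27 had at most 3 counts in a library, Prss21 and Prss28 at most 1, and Prss29 and Prss34 had none. The nearest tested neighbours of the stretch from Prss33 to Prss27, Elob before it and Kctd5 after it, were not called. The libraries of Elob still did not overlap between genotypes in either hemisphere (log2 0.15 ± 0.05 in each).

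**Figure D2:**
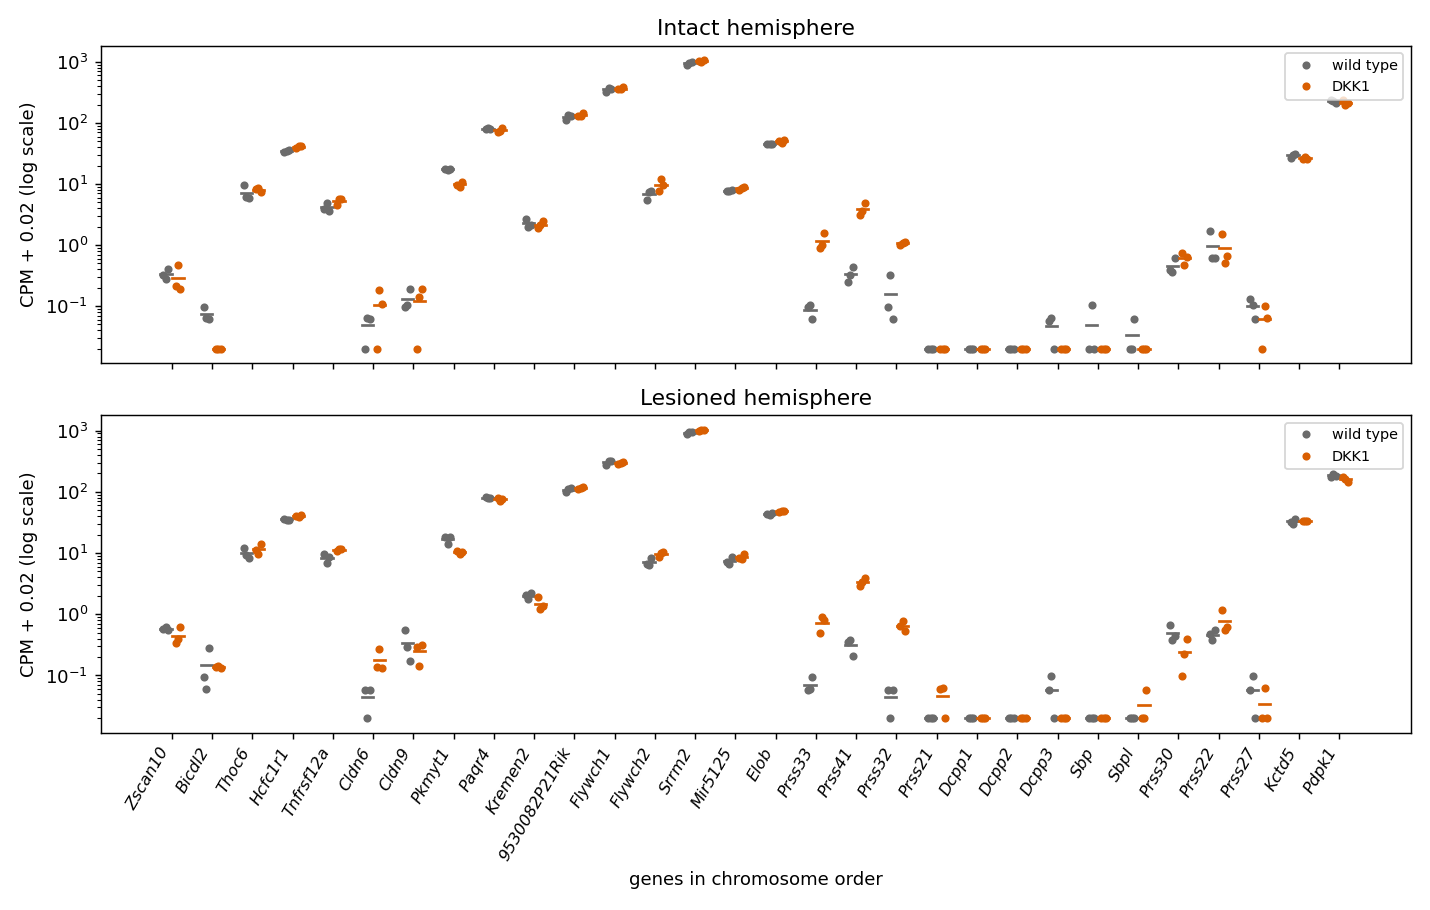
CPM plus 0.02 on a log scale of the genes around the Prss cluster in chromosome order (evenly spaced), in intact (top) and lesioned (bottom) tissue; grey points are wild-type and orange points DKK1 libraries, 3 each, and bars are means. The genotypes separate widely at Prss33, Prss41 and Prss32 on both sides, and Pkmyt1 is lower in DKK1 mice; points at the floor are libraries with 0 counts, and gaps between points near the floor, as at Cldn6 and Bicdl2, rest on few counts.

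Rnf151, a RING finger gene known from developing sperm, showed the same near-absence in wild type. Its intact values were 0.225, 0.0855 and 0.169 CPM in wild type and 1.86, 1.56 and 2.14 CPM in DKK1 mice. Its lesioned values were 0.15, 0.0396 and 0 CPM against 1.21, 1.11 and 0.895 CPM. The groups were far apart on each side, with log2 differences of 3.47 ± 0.47 and 3.97 ± 0.55. Rps2, which was lower in DKK1 mice, is a close neighbour on the plus strand (chr17:24720063-24721927).

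Sstr5, a somatostatin receptor, was at 1.5, 1.33 and 2.7 CPM in wild-type and 6.37, 5.78 and 9.29 CPM in DKK1 intact tissue, a log2 difference of 1.95 ± 0.32. In lesioned tissue it was at 2.21, 1.15 and 1.75 CPM against 4.58, 3.01 and 2.98 CPM, and the difference of 1.05 ± 0.33 was not called although the groups did not overlap. The intact call was lost without wild-type intact replicate 1, wild-type intact replicate 2 or DKK1 intact replicate 3, at log2 values of 1.82, 1.77 and 1.73. The difference between the hemispheres is given with the interaction.

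Zfp983, a zinc finger gene, was called higher on both sides by a smaller margin. It was at 24, 31.7 and 28.1 CPM in wild-type and 44, 50.3 and 48 CPM in DKK1 intact tissue (log2 0.77 ± 0.11), and at 23, 27.5 and 29.2 against 40, 36.1 and 42.3 CPM in lesioned tissue (0.57 ± 0.11). D330041H03Rik, a noncoding row whose exons overlap Abca3 on the opposite strand, had log2 differences of 0.30 ± 0.06 and 0.45 ± 0.06. Its intact call was lost, at 0.28 to 0.33, without any one of the 6 intact libraries, DKK1 lesioned replicate 2 or 3, or wild-type lesioned replicate 3.

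**Figure D3:**
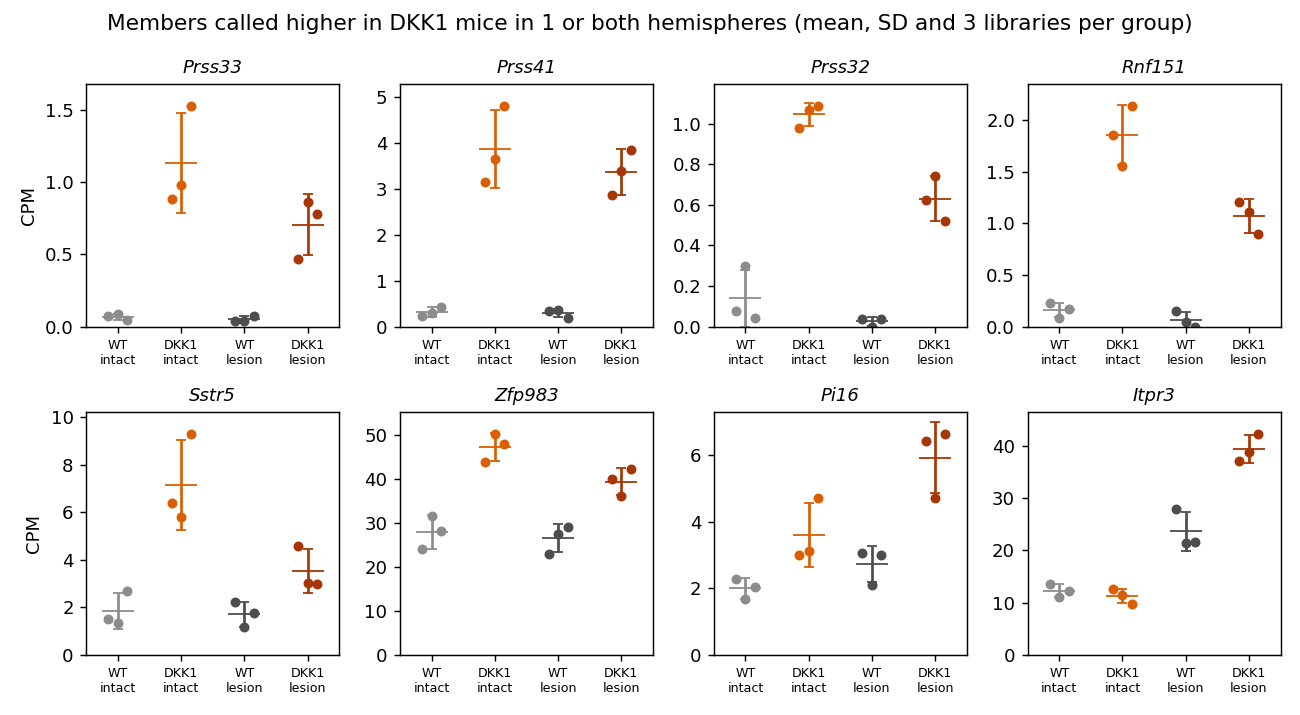
CPM on a linear scale from 0 of 8 members called higher in DKK1 mice in 1 or both hemispheres, by group; dots are the 3 libraries, horizontal bars the mean and error bars the SD. Prss33, Prss41, Prss32 and Rnf151 are near 0 in both wild-type groups, while Itpr3 is alike in the intact groups and separates in lesioned tissue only.

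The genes lower in DKK1 mice were mostly well expressed, and their DKK1 levels were reduced but not lost. Rnps1, an RNA-binding protein that joins the exon junction complex, was at 71.2, 70.3 and 72.7 CPM in wild-type and 27.8, 26.8 and 27.2 CPM in DKK1 intact tissue, and at 61.5, 66.4 and 64.8 against 23.8, 23 and 20.9 CPM in lesioned tissue. The log2 differences were -1.39 ± 0.06 and -1.51 ± 0.06, and libraries of a group lay within a few CPM of each other.

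Rps2, a protein of the small ribosomal subunit, was at 53.7, 58.9 and 58.8 CPM in wild-type and 25.4, 21.7 and 22.5 CPM in DKK1 intact tissue (log2 -1.30 ± 0.07), and at 60.7, 56.7 and 57.5 against 21.3, 22.5 and 22.4 CPM in lesioned tissue (-1.40 ± 0.07). The other ribosomal protein genes of the window, Rpl3l, Rps10 and Rpl10a, were not called in either genotype contrast.

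Atp6v0c, the c subunit of the membrane sector of the vacuolar proton pump, was at 93.8, 97.8 and 97.4 CPM in wild-type and 39.4, 36.7 and 43.4 CPM in DKK1 intact tissue (log2 -1.27 ± 0.06). In lesioned tissue the values were 83.7, 90.9 and 89.2 CPM against 38.3, 38.4 and 39.1 CPM (-1.19 ± 0.06). Hmga1, an AT-hook chromatin protein, was at 26.6, 26.1 and 26.8 CPM against 10.7, 9.59 and 9.46 CPM in intact tissue (-1.42 ± 0.10), and at 28.5, 23.8 and 30.9 against 10.6, 11 and 11.1 CPM in lesioned tissue (-1.35 ± 0.10). For both genes no DKK1 library reached the range of the wild-type libraries.

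The rows Atp6v0c-ps2 and Hmga1b are not separate evidence. The table places them on top of Atp6v0c and Hmga1, so that the 14 lower rows in the intact hemisphere are 12 loci and the 13 in the lesioned hemisphere are 11. Their log2 differences were -1.64 ± 0.05 and -1.58 ± 0.05 for Atp6v0c-ps2, and -1.63 ± 0.12 and -1.62 ± 0.12 for Hmga1b. GENCODE vM21 places genes of these names on chromosomes 6 and 11. More widely, reads of genes with near-identical copies could be split or dropped in counting. Of the 219 members with a transcript to search, at least 95% identity over 200 or more bases to a transcript of another gene was found for 5 of 15 called lower in either hemisphere (33.3%: Atp6v0c-ps2, Atp6v0c, Rps2, Unkl and Hmga1), for 1 of 13 called higher (7.69%: Zfp983) and for 20 of 191 not called (10.5%). The values of these 6 rows and of Hmga1b are therefore uncertain, and whether sequence differences between the strains changed how reads were assigned was not tested. The 33.3% is a share of rows, not of loci. Atp6v0c and Atp6v0c-ps2 both count in it, and Hmga1b counts as without a match because genes at its own place were left out. Exons on the opposite strand overlap Pkmyt1 (Paqr4), Caskin1 (Traf7), Tbl3 (Noxo1), Spsb3 (Eme2), Unkl (Gnptg), Rps2 (Snhg9), Hmga1 (AI413582 and Gm49774), Ppil1 (AC162182.3), Itpr3 (Itpr3os), Pi16 (AC162182.1) and D630044L22Rik (A930017K11Rik and Capn15), with the same limit on strand as for the Prss pair.

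Pkmyt1, a kinase that restrains entry into mitosis, was at 17.3, 17.1 and 17.8 CPM in wild-type and 9.5, 9.02 and 10.9 CPM in DKK1 intact tissue (log2 -0.83 ± 0.12). Its lesioned difference was -0.72 ± 0.12, and this call was lost without wild-type lesioned replicate 3 (-0.66). Unkl, a zinc finger protein related to unkempt, was at 36.6, 39.8 and 40 against 21.6, 21.4 and 22.1 CPM in intact tissue, with differences of -0.84 ± 0.07 and -0.81 ± 0.07 in the 2 hemispheres. Decr2, a peroxisomal enzyme of unsaturated fatty acid oxidation, was at 44, 40.2 and 43.5 against 26.4, 29.3 and 26.6 CPM in intact tissue (-0.63 ± 0.07 and -0.53 ± 0.07).

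Ppil1, a cyclophilin of the spliceosome, was at 20.6, 20 and 19.6 against 11.5, 12.8 and 13.6 CPM in intact tissue (-0.67 ± 0.08 and -0.46 ± 0.08), and its lesioned call was lost without DKK1 lesioned replicate 2 (-0.46). Spsb3, an adaptor of a ubiquitin ligase, differed by -0.42 ± 0.05 and -0.39 ± 0.05. Tbl3, a protein of ribosome biogenesis, was called in the intact hemisphere only (-0.29 ± 0.06, beside -0.19 ± 0.06 in lesioned tissue), and this call was lost, at -0.24 to -0.32, without any library except wild-type lesioned replicate 1. These smaller differences also left the groups apart in the intact hemisphere.

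**Figure D4:**
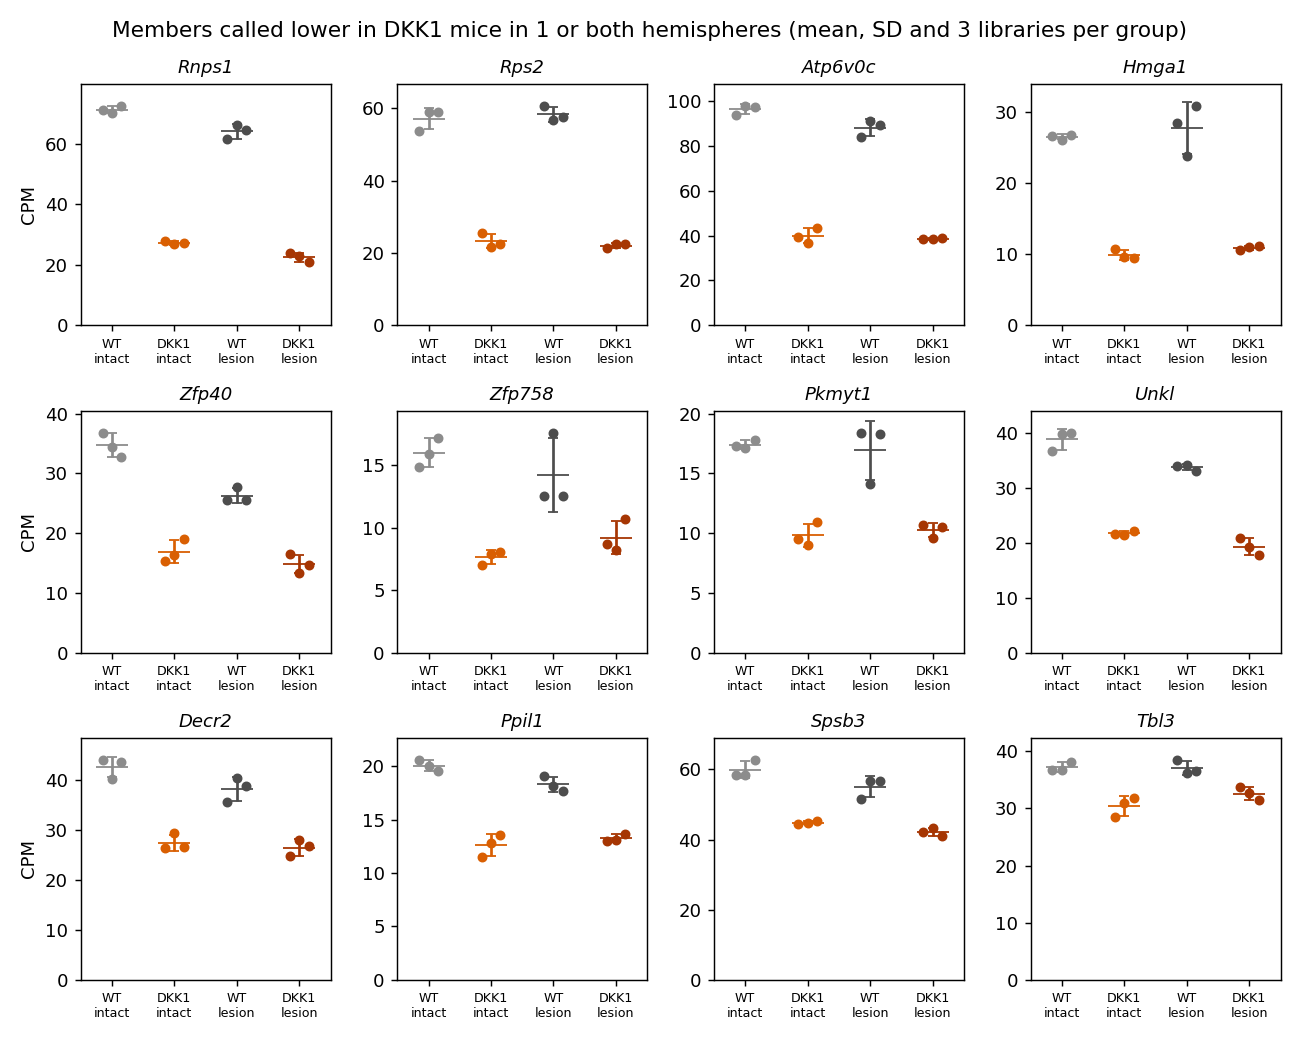
CPM on a linear scale from 0 of 12 members called lower in DKK1 mice in 1 or both hemispheres, by group; dots are the 3 libraries, horizontal bars the mean and error bars the SD. Rnps1, Rps2, Atp6v0c and Hmga1 have the largest fitted fold differences of the genes shown, Spsb3 and Tbl3 the smallest, and the genotype gap has the same direction on both sides for every gene shown.

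The window's 26 zinc finger genes, all tested, did not share a direction. In the intact hemisphere Zfp983 was called higher and Zfp758 and Zfp40 lower, with a median log2 difference of -0.13 over the list. In the lesioned hemisphere Zfp983 and Zfp760 were called higher and Zfp40 lower, with a median of -0.04. Zfp40 was at 36.8, 34.5 and 32.8 CPM in wild-type and 15.3, 16.4 and 19 CPM in DKK1 intact tissue (-1.04 ± 0.10), and at 25.6, 27.8 and 25.5 against 16.5, 13.4 and 14.6 CPM in lesioned tissue (-0.82 ± 0.10). Zfp758 was at 14.9, 15.9 and 17.2 against 7.01, 7.91 and 8.02 CPM in intact tissue (-1.06 ± 0.15), and its lesioned difference of -0.62 ± 0.15 was not called. Zfp983 and Zfp40 thus differed in opposite directions on both sides.

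Of the 7 members called in the lesioned hemisphere only, Pi16 and Itpr3 differed the most. Pi16, a peptidase inhibitor, was at 3.07, 2.1 and 3.01 CPM in wild-type and 6.42, 4.7 and 6.63 CPM in DKK1 lesioned tissue (1.12 ± 0.23), after 0.85 ± 0.24 in intact tissue. Itpr3, an intracellular calcium release channel, was at 28, 21.4 and 21.6 CPM against 37.2, 38.8 and 42.3 CPM in lesioned tissue (0.74 ± 0.12), after -0.12 ± 0.13 in intact tissue. The others were Zfp760 (0.55 ± 0.13), Nubp2 (0.40 ± 0.08), D630044L22Rik (0.29 ± 0.07), Abca3 (0.19 ± 0.04) and, lower, the synaptic scaffold Caskin1 (-0.33 ± 0.06). These calls were fragile: the named ones among them were lost without wild-type lesioned replicate 3 (Pi16 1.19, Itpr3 0.67, Zfp760 0.51, Nubp2 0.39, Abca3 0.21, Caskin1 -0.29) and without DKK1 lesioned replicate 3 (1.03, 0.68, 0.50, 0.42, 0.22 and -0.32 in the same order). The lesioned call of Zfp983 was likewise lost without either of these libraries, at 0.64 and 0.52. Without wild-type lesioned replicate 2 the calls of Pi16 (0.96), Itpr3 (0.67), Zfp983 (0.60), Nubp2 (0.36), Abca3 (0.20) and Caskin1 (-0.33) were lost, and without DKK1 lesioned replicate 2 those of Zfp760 (0.62), Nubp2 (0.36), Abca3 (0.17) and Caskin1 (-0.28). Without wild-type intact replicate 3 or DKK1 intact replicate 2, Pi16 (1.1), Zfp983 (0.55), Zfp760 (0.52), Nubp2 (0.38) and Abca3 (0.17) were lost. Zfp983 (0.55) and Abca3 (0.17) were also lost without DKK1 intact replicate 1 or 3, Zfp760 (0.52) without the latter, and Zfp760 and Abca3 without wild-type intact replicate 2 (0.55 and 0.19) or DKK1 lesioned replicate 1 (0.53 and 0.19). The call of D630044L22Rik was lost, at 0.27 to 0.29, without any library except wild-type intact replicate 1 or 2, wild-type lesioned replicate 1 or DKK1 lesioned replicate 1.

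Along the window, calls began with Zfp983 at 21650611 and ended in the intact hemisphere with Ppil1 at 29250835. By number, the stretch from 24 to 25 Mb held the most, with 2 higher and 6 lower of 48 tested genes in intact and 4 and 6 in lesioned tissue. By share, the stretch from 23 to 24 Mb held more, with 3 higher and 2 lower of 22 tested genes on each side. The 20 tested genes from 28 to 29 Mb held none. At the lower edge only 1 gene from 20 to 21 Mb was tested, Ppp2r1a, a scaffold of protein phosphatase 2A, at log2 0.10 ± 0.05 and 0.03 ± 0.05. The next tested genes inside, Zfp160 (-0.13 ± 0.07 and -0.01 ± 0.07) and Zfp677 (-0.43 ± 0.18 and 0.26 ± 0.17), were not called. No gene from 18 to 20 Mb was tested. The nearest tested gene below the window, the formyl peptide receptor Fpr2 (chr17:17887824-17893952), was called higher in DKK1 mice on both sides (2.38 ± 0.29 and 2.12 ± 0.29), beside 0.97 ± 0.32 and 0.57 ± 0.33 for Fpr1 and 0.60 ± 0.23 and 0.44 ± 0.23 for the hyaluronan synthase Has1, neither called.

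At the upper edge none of the nearest tested genes was called, and the value of Gm6402 had a wide error. Inside it, Cmtr1, Ccdc167 and Mdga1 had intact values of 0.06 ± 0.04, 0.02 ± 0.06 and 0.01 ± 0.13, and outside it Zfand3, Btbd9 and Gm6402 had -0.04 ± 0.05, 0.10 ± 0.08 and 0.37 ± 0.56. The lesioned values in the same order were 0.00 ± 0.04, 0.04 ± 0.06, -0.04 ± 0.13, 0.11 ± 0.05, -0.02 ± 0.08 and -0.14 ± 0.52. For Zfand3 the lesioned libraries of the genotypes did not overlap. The flanking stretches were not free of calls. From 10 to 20 Mb, 6.67% of 60 tested genes were called in the intact and 13.3% in the lesioned hemisphere. From 30 to 40 Mb the shares were 9.82% and 13.8% of 224 genes. These shares lay near those of the window itself (9.42% and 11.2%), and the difference between the stretches was not tested. The window's shares leave out 7 of its rows, whereas the flanking stretches keep all of theirs.

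Cell type markers were read beside these differences, since in bulk tissue fewer cells of a type and less RNA per cell cannot be told apart. In the intact hemisphere no tested marker of neurons, astrocytes, oligodendrocytes, microglia, endothelium, T and NK cells, B cells, mast cells or choroid plexus was called between genotypes. The summed neuron markers lay at 3029 to 3195 CPM in wild type and 3067 to 3350 CPM in DKK1 mice there. The mast cell list, which held no tryptase, summed to 52.8 to 63.9 CPM and 55.6 to 65.4 CPM. This sum is not a measure of mast cells. With the lesion in wild type the median log2 change over its 5 tested markers was 3.06, yet the sum stayed at 47.5 to 69.7 CPM. In the lesioned hemisphere 2 of 5 B cell markers and 1 of 5 endothelial markers were called higher in DKK1 mice. B cell markers summed to 30.5 to 40.5 CPM in wild type and 69 to 123 CPM in DKK1 mice, T and NK cell markers to 5.9 to 12.9 and 17.6 to 23.6 CPM, mast cell markers to 47.5 to 69.7 and 70.7 to 83.4 CPM, and microglial markers to 506 to 782 and 751 to 807 CPM. The part of these cells in the lesioned differences was not tested.

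The genotype calls within functional groups of the window are given beside 0.88% of all genes called in the intact and 2.37% in the lesioned hemisphere, and nothing is read from them. Of the 2 Wnt pathway genes, neither was called. Kremen2, a receptor for DKK1, was at 2.7, 1.92 and 2.11 CPM in wild-type and 1.91, 2.09 and 2.44 CPM in DKK1 intact tissue, and at 2.02, 1.78 and 2.21 against 1.88, 1.2 and 1.34 CPM in lesioned tissue (-0.07 ± 0.22 and -0.44 ± 0.23). Axin1, a scaffold of the complex that degrades beta-catenin, differed by -0.12 ± 0.07 and 0.02 ± 0.06. No gene was called among the 4 of mTOR and TSC signalling, the 5 of the MAP kinase pathway or the 6 of the stress and glucocorticoid response, in either hemisphere. Among 17 synaptic and neuronal genes only Caskin1 was called, lower in the lesioned hemisphere. Of the 14 genes listed as mitochondrial, Decr2 was called lower on both sides and Nubp2 higher in lesioned tissue, but Decr2 is a peroxisomal and Nubp2 a cytosolic protein. Rnps1 was the only call among 8 RNA processing genes, Pkmyt1 among 10 of DNA repair and cell cycle, and Hmga1 among 8 tested transcription factors and nuclear receptors, each lower on both sides. Of 11 genes of lysosome and membrane transport, Atp6v0c was lower on both sides, and Abca3 and Itpr3 higher in lesioned tissue.

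Lesioned and intact hemispheres were compared next. This contrast had no part in choosing the window, so its tests are given. It shares libraries with the genotype contrasts, so for members called between genotypes its p-values are not independent of that choice. In wild-type mice 22 members rose and 34 fell with the lesion, 25.1% of those tested beside 37.2% of all genes (9.87% and 15.2% by direction, beside 21.2% and 15.9%). In DKK1 mice 38 rose and 42 fell, 35.9% beside 50.1% of all genes (17% and 18.8%, beside 27.5% and 22.6%). The window thus held a smaller share of lesion calls than the table as a whole, and the median change over its tested genes was -0.04 and -0.01, beside 0.01 and 0.01 over all genes. Libraries did not overlap for 84 members in wild type (37.7% beside 50.3%) and 106 in DKK1 mice (47.5% beside 59.9%). Of the calls, 49 were shared by the genotypes, all with the same sign (20 higher and 29 lower), which is 87.5% of the wild-type and 61.2% of the DKK1 calls.

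Without wild-type lesioned replicate 1 the wild-type counts were 13 and 20 in place of 22 and 34. The lower count was 19 without wild-type intact replicate 2 and 22 without wild-type intact replicate 3. With replicate number as a random block it was 52. The main fit did not pair the hemispheres. With replicate number as a fixed block, 30 members rose and 43 fell in wild type, and 45 rose and 47 fell in DKK1 mice. Neuron markers fell on the lesioned side in both genotypes (5 of 5, edgeR adjusted p under the threshold), and microglial markers rose (4 of 5 in wild type and 5 of 5 in DKK1 mice). Markers of oligodendrocytes (5 of 5) and B cells (5 of 5) and those of T and NK cells (4 of 4) also rose in both genotypes. In wild type and DKK1 mice in turn, 3 and 4 of 5 astrocyte, 2 and 3 of 5 endothelial, 2 and 4 of 5 tested mast cell and 5 and 1 of 5 choroid plexus markers rose. The part of cell composition in the changes below was not tested.

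Among the genes that rose was Fgd2, an exchange factor for Cdc42 found in myeloid cells. It was at 7.05, 5.22 and 5.32 CPM in wild-type intact and 28.9, 14.8 and 18.6 CPM in wild-type lesioned tissue, and at 6.22, 5.82 and 5.54 against 23.1, 19.8 and 25.2 CPM in DKK1 mice. Wild-type lesioned replicate 1 was the highest of its group. The log2 changes were 1.82 ± 0.22 (edgeR adjusted p = 0.000141) and 1.95 ± 0.22 (adjusted p = 3.46e-05).

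Pim1, a serine/threonine kinase, and Tnfrsf12a, the receptor of the cytokine TWEAK, were the 2 of 6 stress response genes that rose in each genotype, beside 21.2% and 27.5% of all genes tested. Pim1 was at 7.54, 6.03 and 5.11 CPM in wild-type intact and 20.1, 12.3 and 13.1 CPM in wild-type lesioned tissue (1.28 ± 0.21, edgeR adjusted p = 0.000815), and changed by 1.33 ± 0.21 in DKK1 mice (adjusted p = 0.000291). Tnfrsf12a was at 3.86, 4.92 and 3.59 against 9.65, 6.82 and 8.52 CPM in wild type (1.02 ± 0.17, edgeR adjusted p = 0.000897) and rose by 1.09 ± 0.17 in DKK1 mice (adjusted p = 0.000237). Fam234a, a membrane protein of little-known function, rose by 0.81 ± 0.13 and 0.95 ± 0.13 (edgeR adjusted p = 0.000773 and 0.000117). In all 3 genes each lesioned library exceeded each intact library of the same genotype.

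Synaptic and neuronal genes were among those that fell. Of the 17 synaptic and neuronal genes, 10 fell and 1 (Jpt2) rose in wild type, and 11 fell and 1 (Jpt2) rose in DKK1 mice, with list medians of -0.28 and -0.31 beside 0.01 and 0.01 over all genes. Over all genes tested, 15.9% fell and 21.2% rose in wild type and 22.6% fell and 27.5% rose in DKK1 mice. Cpne5, a calcium-dependent membrane-binding copine, was at 170, 219 and 195 CPM in wild-type intact and 107, 139 and 124 CPM in wild-type lesioned tissue (-0.66 ± 0.12, edgeR adjusted p = 0.00149), with -0.68 ± 0.12 in DKK1 mice (adjusted p = 0.000612). Fbxl16, an F-box protein enriched in brain, fell by 0.57 ± 0.10 and 0.54 ± 0.10 on the log2 scale (edgeR adjusted p = 0.00154 and 0.00105). The vesicle protein Syngr3 fell by 0.29 ± 0.07 and 0.41 ± 0.07 (edgeR adjusted p = 0.00833 and 0.000679), and the ubiquitin ligase Neurl1b by 0.43 ± 0.09 and 0.54 ± 0.09 (edgeR adjusted p = 0.00358 and 0.000458).

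Zfp523, a zinc finger transcription factor, had the smallest p of the genes that fell. It was at 116, 120 and 117 CPM in wild-type intact and 91.7, 88.1 and 88.2 CPM in wild-type lesioned tissue (-0.40 ± 0.04, edgeR adjusted p = 5.89e-05), and changed by -0.38 ± 0.04 in DKK1 mice (adjusted p = 2.55e-05). Rpusd1, which carries a pseudouridine synthase domain, fell by 0.50 ± 0.07 and 0.41 ± 0.07 (edgeR adjusted p = 0.000453 and 0.000783). Of the 2 Wnt pathway genes, Axin1 rose in DKK1 mice by 0.31 ± 0.07 (edgeR adjusted p = 0.0019) and had 0.17 ± 0.06 in wild type (adjusted p = 0.0561). Kremen2 had -0.17 ± 0.22 and -0.54 ± 0.23, neither passing.

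Several genes with large genotype differences did not pass the test for the lesion. Prss33 changed by -0.38 ± 0.72 in wild type and -0.68 ± 0.32 in DKK1 mice, and Prss41 by -0.09 ± 0.38 and -0.20 ± 0.24. Prss32 changed by -2.21 ± 0.88 and -0.73 ± 0.40, and Rnf151 by -1.28 ± 0.72 and -0.78 ± 0.37. None passed the test (edgeR adjusted p from 0.0682 to 0.892). The lesioned libraries of Prss32 nevertheless lay below the intact ones in each genotype, and those of Prss33 and Rnf151 did so in DKK1 mice. The wild-type changes rest on few intact and lesioned counts, 5 and 4 for Prss33, 10 and 2 for Prss32 and 12 and 5 for Rnf151. Of the 28 members called between genotypes in either hemisphere, 4 also passed for the lesion in wild type, Itpr3, Zfp40, Unkl and Rnps1. In that contrast 25.1% of the tested members and 37.2% of all genes passed. Zfp40 fell by 0.40 ± 0.10 (edgeR adjusted p = 0.00733) and Unkl by 0.20 ± 0.07 (adjusted p = 0.0348). Rnps1 fell by 0.15 ± 0.06 in wild type and 0.27 ± 0.06 in DKK1 mice (edgeR adjusted p = 0.0474 and 0.00221). Sstr5 fell in DKK1 mice by 1.02 ± 0.31 (edgeR adjusted p = 0.016) and had -0.11 ± 0.34 in wild type. The baseline of its fall is the same DKK1 intact libraries that gave its genotype call, so this p-value is not independent of that call. Prss30 fell in DKK1 mice by 1.41 ± 0.48 (edgeR adjusted p = 0.0292) on 2, 5 and 10 counts in the lesioned libraries. That call was lost without DKK1 intact replicate 1 or 3 (-1.27 and -1.42) or without DKK1 lesioned replicate 1 or 2 (-1.02 and -1.37).

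**Figure D5:**
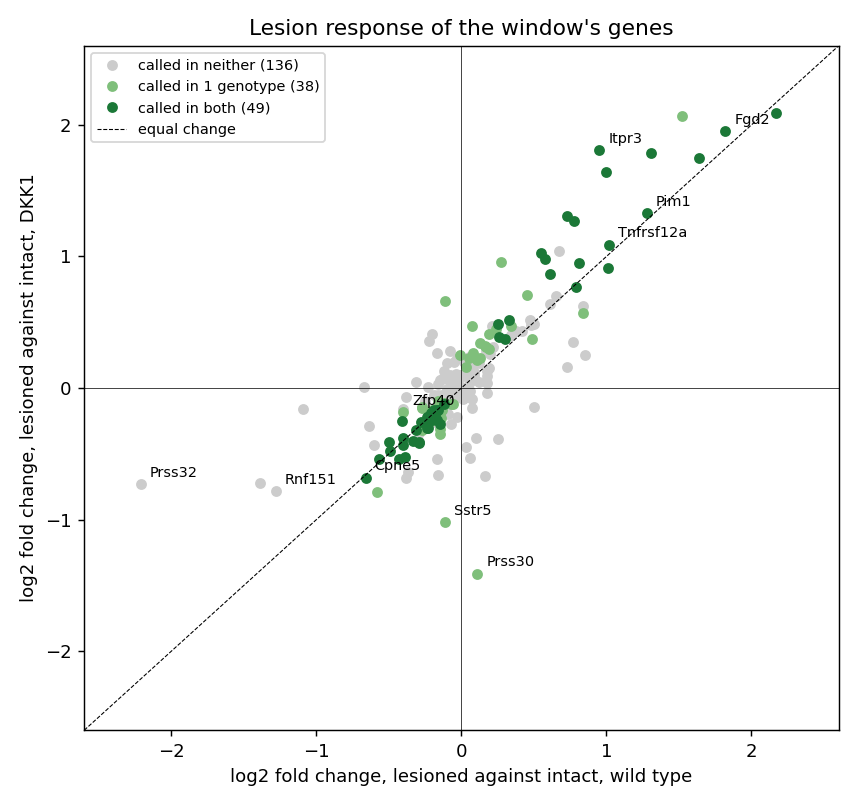
Log2 fold change, lesioned against intact, in wild-type mice (horizontal) and DKK1 mice (vertical) for the 223 tested genes; colour gives whether the gene passed the test in neither genotype (136), 1 (38) or both (49), and the dashed line marks equal change. The genes called in both lie along the line in the lower left and upper right, and Itpr3 lies above it (0.95 and 1.81).

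The test of whether the genotype difference itself differed between hemispheres gave 0 calls among the 223 members with edgeR, beside 1 of all genes tested (0.00568%). This interaction is built from the 2 genotype contrasts that had a part in choosing the window. Its p-values are therefore given as descriptions, and no support is drawn from them. At an unadjusted edgeR p under 0.05 there were 9 of the 223 members, 8 with a larger and 1 with a smaller value in lesioned tissue. Over all 17612 genes tested, 1689 reached this, 1230 with a larger and 459 with a smaller value. DESeq2 called 1, Itpr3 (0.85 ± 0.20, DESeq2 adjusted p = 0.0135), and limma-voom none. Itpr3 rose with the lesion by 0.95 ± 0.13 in wild type and 1.81 ± 0.13 in DKK1 mice (edgeR adjusted p = 0.000236 and 2.04e-06), and the difference of 0.86 ± 0.18 had an adjusted p of 0.319. With replicate number as a fixed block, 3 members passed: Itpr3 (0.86 ± 0.14, edgeR adjusted p = 0.0218), Amdhd2, an enzyme of amino sugar metabolism (0.58 ± 0.11, adjusted p = 0.037), and Msrb1, a methionine sulfoxide reductase (0.48 ± 0.10, adjusted p = 0.0455). Without wild-type lesioned replicate 1, Itpr3 passed with 1.0 ± 0.16 (edgeR adjusted p = 0.0194). For Sstr5 the interaction was -0.91 ± 0.46 (edgeR adjusted p = 0.551), so its larger intact difference was not shown to differ from the lesioned one.

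Amdhd2 and Msrb1 rose with the lesion in both genotypes. Amdhd2 was at 16.5, 13.9 and 15.8 CPM in wild-type intact and 29.9, 22.9 and 23.9 CPM in wild-type lesioned tissue (0.73 ± 0.16, edgeR adjusted p = 0.00409), and at 12.7, 16.7 and 14.9 against 28.7, 41.5 and 40 CPM in DKK1 mice (1.31 ± 0.16, edgeR adjusted p = 4.49e-05). Msrb1 rose by 0.55 ± 0.12 and 1.03 ± 0.12 (edgeR adjusted p = 0.00502 and 4.09e-05). For both genes DKK1 intact replicate 1 and DKK1 lesioned replicate 1 were the lowest of their groups.

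Among the 75 members too low to test, 36 had no count in any library and 39 had some. All 31 vomeronasal and formyl peptide receptor genes of the window were among them, 26 with no count at all, and 12 were micro- or small nucleolar RNAs. No genotype statement can be made for these genes at this depth.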

How the data were processed

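Total RNA from 12 brain samples was made into directional libraries, per the labels' protocols. The submitters' processing notes name STAR 2.7.0f, HOMER 4.11, DESeq2 and mm10, with no roles; whether strand was used in counting is not stated there. The 2 deposited tables hold 25124 genes each: raw read counts per gene, which were tested, and TPM values, which served for levels per length and for an alternative on log2(TPM + 1). CPM were computed from the counts with TMM scaling factors. Genes passing edgeR's filter (minimum count 10, by group) were fitted with edgeR 4.0.16 (R 4.3.3) by the robust quasi-likelihood test over all 12 libraries and 4 groups, two-sided, with Benjamini-Hochberg adjustment over 17612 genes; errors of log2 fold changes are standard errors. The procedure was tested on simulated data. Alternatives were other scalings, DESeq2 1.42.0, limma-voom (limma 3.58.1), no filter, only the groups compared, TPM, a replicate block and leaving out each library. Replicate numbers come from the sample titles. Intact and lesioned libraries with the same number deviated together from their groups. Their correlations were 0.487, 0.31 and 0.297 for wild type, then 0.276, 0.125 and 0.105 for DKK1, all above 0.1. Pairs with different numbers ran from -0.358 to 0.172, the highest being DKK1 intact 2 with lesioned 3. The replicate block therefore took the numbers to pair hemispheres within a genotype, which in DKK1 mice rests on weak correlations. The main fit did not pair the hemispheres. The window, its genes and the gene lists were chosen with earlier results of these data known. Genes named are the Prss genes and Tpsg1, the 10 called members with the largest fold change per direction and genotype contrast (at least 1 CPM, no overlap of groups, no predicted models), the 5 with the smallest p per lesion contrast and direction, up to 3 per list and 3 at each side of the edges. A gene that this rule names is not reported here. D330041H03Rik, D630044L22Rik, Spsb3, Tbl3, Ppil1, Jpt2 and Cdkn1a were named after their values were seen. Transcripts were compared by BLAST with GENCODE vM21, and promoters come from RefSeq (GRCm38.p6).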

Additional observations from a re-analysis of the deposited data

How the results depend on the processing

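No called value changed sign under any alternative run. Of 61 calls of single named genes, 48 held under every alternative. For the genotype contrast in intact tissue, leaving out each library in turn gave 4 to 8 higher and 13 to 15 lower genes. In lesioned tissue it gave 5 to 31 higher and 11 to 18 lower. There DESeq2 gave 19 higher and 20 lower, and fitting only the groups compared gave 3 higher and 9 lower, so that the share higher was 25% in place of 48%; deposited TPM gave 9 and 16 (36%). For the lesion in wild type the ranges were 13 to 24 higher and 19 to 38 lower. Only the groups compared gave 21 lower, a replicate block as a random effect 52 lower, and deposited TPM 23 higher and 23 lower (50% higher in place of 39.3%). In DKK1 mice the lesion ranges were 28 to 41 and 29 to 47. The interaction gave 0 to 1 higher and 0 lower; DESeq2 gave 1 and the fixed replicate block 3. The replicate block moved no other count of calls by over 1.5 times. The cause of these shifts was not tested. With 3 libraries a group and few wild-type counts, the size of the differences of Prss33, Prss32 and Rnf151 is known only roughly. Wild-type libraries had 1 or 2 counts for Prss33, 0 to 7 for Prss32 and 0 to 6 for Rnf151.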

Other observations

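Some genes of the window varied with replicate number in all 4 groups. Fkbp5, a target of glucocorticoid signalling, was at 59, 96.1 and 113 CPM in wild-type intact replicates 1 to 3, at 62, 104 and 95.1 in DKK1 intact, at 59.8, 95.4 and 107 in wild-type lesioned and at 70.5, 132 and 104 in DKK1 lesioned tissue. Cdkn1a, a cell cycle inhibitor, was at 21.3, 52.7 and 70.6, at 19.5, 56.4 and 43.6, at 31.6, 63.3 and 87.4 and at 29.1, 72.8 and 56.7 CPM in the same order. Replicate 1 was the lowest library of each group for both genes. The same held for 19 of the 223 tested members and for 1090 of all 17612 genes tested. Replicate 1 was the highest library of each group for 6 tested members, Slc9a3r2, Gm33727, Pigq, Uhrf1bp1, 4930539E08Rik and Rab44. Nothing in the labels ties the numbers across genotypes.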
